A study of Caenorhabditis elegans with 4 samples.

Results

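The regions described here are the LIN-39 ChIP-seq intervals of Caenorhabditis elegans chromosome III that lie outside the Hox cluster. They were chosen by position alone: every interval of the combined list on III whose midpoint lay below 7500000 or above 7850000. The stretch between these positions is called the Hox window. The rule gave 982 of the 8006 combined intervals (12.3%), and it left out 12 intervals of III that lay inside the Hox window. The same rule gave 413 of 3541 intervals in the replicate 1 list and 215 of 1743 in the replicate 2 list.

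DNA bound by LIN-39 was collected with chromatin from fed L1 hermaphrodites, the first larval stage, and sequenced (ChIP-seq). All worms were of the strain OP18, with the mutation unc-119(ed3) on III. Their transgene wgIs18, made by bombardment and then outcrossed, holds unc-119(+) together with a tagged gene, lin-39::TY1::EGFP::3xFLAG. They were grown at 20 degrees C, and an antibody against GFP collected the tagged protein. These worms gave 2 ChIP libraries and 2 libraries of input DNA. The data are 1 interval list for each ChIP library and 1 for the series as a whole, the combined list. Input values did not enter this comparison of lists. All worms carried the tagged transgene and the unc-119 mutation, and no strain without the tag was analysed here. Nothing in the labels ties the replicates to separate cultures, so their differences may be technical. Read depth is unknown, so an interval missing from a list cannot be called unbound, and each list is a single call with no error of its own.

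Hox proteins are homeodomain transcription factors that give cells their identity along the head-to-tail axis. LIN-39 acts in the mid-body of the worm, where it patterns ventral cord neurons, the migrating Q neuroblasts and the vulval precursor cells, and it often binds DNA together with the cofactors CEH-20 and UNC-62. The worm Hox genes all lie on chromosome III. In the gene table of assembly WBcel235, ceh-13, the most anterior-acting Hox gene, is next to lin-39, and mab-5 and egl-5, which act further back, are separated from lin-39 by 38 and 40 coding genes. The posterior Hox genes php-3 and nob-1 are neighbours of each other, 935 and 936 coding genes away from lin-39. Positions below are 1-based on WormBase WS220. No annotation or genome of that build was used here, so no interval was assigned to a gene, no sequence is shown and regions are named by position.

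The 15 strongest regions were called in both replicates and were spread over the whole chromosome, with 6 in the left, 4 in the middle and 5 in the right of 3 segments of equal length. Strength means the significance value that the authors deposited for each interval, where a smaller value is stronger. The strongest region lay at 4281788 to 4283543, was 1756 bp wide and ranked 24 of all combined intervals. Its value was 7.39e-70 in the combined list, and the stronger of its overlapping intervals had 7.23e-36 in replicate 1 and 5.00e-32 in replicate 2. It was covered by 2 intervals in replicate 1 and 1 in replicate 2, and it ranked 31 and 24 in those lists.

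The second region, at 1859475 to 1859957, was only 483 bp wide, the narrowest of the 15. Its values were 1.09e-55 in the combined list, 3.90e-39 in replicate 1 and 2.93e-23 in replicate 2. In replicate 1 it was the strongest interval of the chromosome outside the Hox window, at rank 24. A second strong region, seventh in order, lay close by at 1924843 to 1925679, with values of 1.62e-44 in the combined list, 9.64e-22 in replicate 1 and 7.24e-21 in replicate 2.

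The third was a 2664 bp interval at 13060858 to 13063521, which 2 intervals of each replicate list overlapped. It had values of 1.70e-52 in the combined list, 7.17e-28 in replicate 1 and 1.28e-14 in replicate 2. The fourth lay at 6987949 to 6988547, with 2.30e-48 in the combined list, 5.24e-29 in replicate 1 and 3.45e-17 in replicate 2. In both regions the replicate 1 value was the smaller one.

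The fifth and the sixth were the regions at 12612218 to 12612876 and 3866941 to 3867828. The fifth had 5.71e-47 in the combined list, 5.71e-29 in replicate 1 and 2.23e-21 in replicate 2. The sixth had 5.05e-46 in the combined list, 1.96e-33 in replicate 1 and 2.63e-21 in replicate 2. Replicate 1 gave the smaller value in each of these regions too.

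In order of strength, the other regions of the 15 began with 1618877 to 1619421, 7854305 to 7855007, 12904779 to 12905398 and 12250043 to 12250755. They went on with 4899121 to 4900265, 2596926 to 2597897, 6870551 to 6874123 and 10758577 to 10759412. The one at 7854305 is the nearest to the Hox window on its right, 4305 bp beyond the edge, and it ranked 95 in the combined list, 94 in replicate 1 and 59 in replicate 2. Across the 15, combined ranks ran from 24 to 125 and widths from 483 to 3573 bp. In the replicate lists the 15 ranked 24 to 637 in replicate 1 and 24 to 1168 in replicate 2. Both of the highest rank numbers belonged to 1 region, at 6870551 to 6874123.

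That region was the widest of the chromosome outside the Hox window, at 3573 bp. Its combined value of 1.88e-35 placed it at 119, within the strongest 1.49% of that list. Replicate 1 had 2 intervals there, of 984 and 855 bp, with values of 1.35e-07 and 3.13e-09. Replicate 2 had 1 interval of 452 bp with a value of 1.33e-04, within the strongest 67.0% of its list. The replicate lists therefore covered it in pieces and ranked it far lower than the combined list did. The other intervals among the 3 widest were the 2664 bp region described above and a 2235 bp interval at 6358894 to 6361128, which ranked 599 in the combined list, 591 in replicate 1 and 732 in replicate 2.

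Among the strength ranks of the whole series, the chromosome III regions were found at every level. Each list was divided into 5 strength groups of equal size, numbered from the strongest. Group 1 held 207 of the 982 members (21.1%, exact 95% interval 18.6 to 23.8%), and groups 2 to 5 held 202, 194, 201 and 178. On the other 5 chromosomes the share in group 1 ran from 18.7% on IV to 22.0% on II. The 100 strongest intervals of each list included 10 members in the combined list, 10 in replicate 1 and 14 in replicate 2. In replicate 1, group 1 held 96 of 413 members (23.2%, 19.3 to 27.6%), against 15.6% to 22.5% on the other chromosomes. In replicate 2 it held 41 of 215 (19.1%, 14.0 to 25.0%), against 18.1% to 22.0%. These intervals, and the others given with shares below, are exact Clopper-Pearson intervals that cover counting error only, and no test between chromosomes was made, since each chromosome gives 1 value per list.

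Most members of the combined list had no counterpart in either replicate list. Sharing means an overlap of at least 1 bp. Both replicate lists were overlapped by 172 of the 982 members (17.5%, 15.2 to 20.0%), against 15.7% of all combined intervals. Replicate 1 alone was overlapped by 200 members (20.4%, 17.9 to 23.0%), against 24.2% of all, and replicate 2 alone by 31 (3.16%, 2.15 to 4.45%), against 4.72% of all. In all, 372 members (37.9%, 34.8 to 41.0%) overlapped replicate 1, against 39.9% of all, and 203 (20.7%, 18.2 to 23.3%) overlapped replicate 2, against 20.5% of all. The remaining 579 (59.0%, 55.8 to 62.1%) overlapped neither, against 55.4% of all combined intervals. The other chromosomes ran from 51.8% on II to 59.9% on I, so III was second here. Chromosome III had the lowest share overlapping replicate 1 alone of the 6 chromosomes, with the others between 23.2% and 26.5%. For the share overlapping both it was second to II, within a range of 13.4% to 18.3% on the others.

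Replicate support followed strength. Both may rest on the same ChIP libraries, since how the combined list was made is unknown, so they cannot be taken as independent. In group 1, 163 of 207 members (78.7%, 72.5 to 84.1%) were found in both replicates, 40 overlapped just the replicate 1 list and 4 just the replicate 2 list. Of the 207, 0 overlapped neither list, and the exact 95% upper bound of that share is 1.77%. In group 2, support by both was found for 7 of 202 (3.47%, 1.40 to 7.01%), while 98 overlapped replicate 1 alone and 77 neither. The share overlapping neither was 79.4% in group 3, 88.6% in group 4 and 95.5% in group 5. The share of group 1 that overlapped both lists was 78.7% on chromosome III and 72.5% (70.1 to 74.9%) on the other 5 chromosomes. In group 2 that share was 3.47% on III and 4.87% on the others. The share of group 3 that overlapped neither was 79.4% (73.0 to 84.8%) on chromosome III and 64.3% (61.7 to 66.8%) on the others. The differences were smaller in group 2 (38.1% against 32.1%), group 4 (88.6% against 83.5%) and group 5 (95.5% against 93.3%). The other chromosomes were pooled here, so how III stands against each of them by strength group is unknown.

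**Figure D1:**
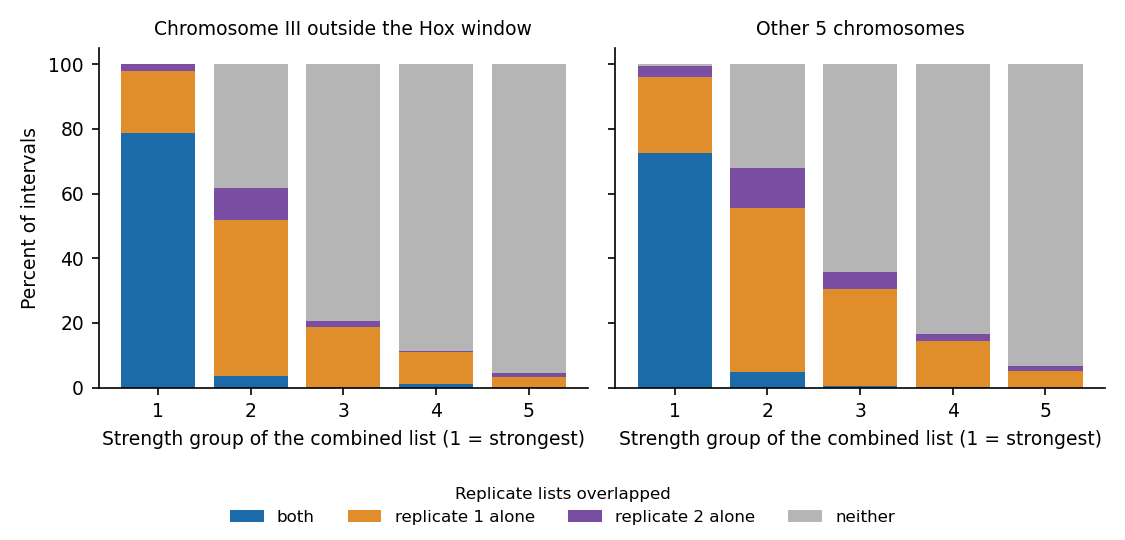
Percent of combined intervals (vertical axis) in each of 5 strength groups (horizontal axis, 1 = strongest) by the replicate lists they overlapped (both, only 1 of them, or neither), for chromosome III outside the Hox window on the left and the other 5 chromosomes on the right. On chromosome III, support by both lists covered 78.7% of group 1 and 3.47% of group 2.

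Counted down from the strongest, the first 79 members overlapped both replicate lists without exception. The member in place 80 was a 1463 bp interval at 8796629 to 8798091, with a combined value of 1.65e-17, which overlapped an 831 bp interval of replicate 1 (value 5.15e-09) and none of replicate 2. The first member that overlapped neither list was in place 210. The 3 strongest of that kind lay at 11741140 to 11741464 (value 3.28e-08), 852496 to 852790 (4.73e-08) and 5930611 to 5931787 (5.19e-08). They ranked 1639, 1686 and 1693 in the combined list, just below its strongest 20%. The median value was 2.06e-16 for members that overlapped both lists, 2.12e-06 for replicate 1 alone, 1.09e-06 for replicate 2 alone and 2.01e-04 for neither.

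Width moved with strength and with support. The median width was 558 bp for the 172 members that overlapped both lists, 354 bp for replicate 1 alone, 452 bp for replicate 2 alone and 206 bp for neither. Of the 102 members under 50 bp, 0 overlapped both lists and 86 overlapped neither. Of the 76 members of at least 800 bp, 40 (52.6%, 40.8 to 64.2%) overlapped both. Across the 982 members, Spearman's rho between width and the −log10 value was 0.58, a description over neighbouring intervals of the same list. A wide interval also has more room to overlap, so width was looked at within a strength group. In group 1, 85 of the 103 members above the group's median width overlapped both lists (82.5%, 73.8 to 89.3%), and so did 78 of the 104 others (75.0%, 65.6 to 83.0%). The wider ones were also stronger, with a median rank of 527 against 939 for the others, and the part of width was not tested apart from strength.

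**Figure D2:**
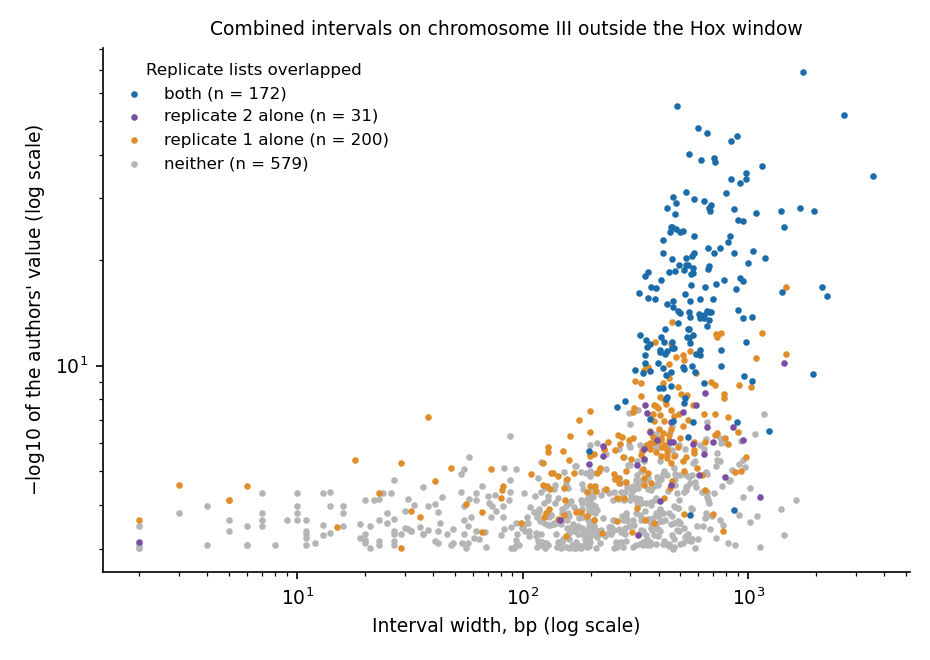
Width in bp (horizontal, log scale) and −log10 of the authors' value (vertical, log scale) for each of the 982 combined members, coloured by the replicate lists it overlapped. Members that overlapped both lists were 197 to 3573 bp wide, with a median rank of 602, and members that overlapped neither had a median rank of 5364.

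Over all members the median width was 332 bp (quartiles 156 and 500 bp), against 228 to 348 bp on the other chromosomes. The members ranged from 2 to 3573 bp, 4 were at least 2000 bp wide, and 10.4% were under 50 bp. They covered 368718 bp, or 2.75% of the extent outside the Hox window, against 2.60% to 3.21% on the others. In replicate 1 the median was 382 bp (range 2 to 1728 bp), and in replicate 2 it was 441 bp (range 77 to 1497 bp).

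The replicate lists were then compared with each other. Of the 215 replicate 2 members, 174 (80.9%, 75.0 to 86.0%) overlapped a replicate 1 interval, against 73.8% of all replicate 2 intervals. In the other direction, 173 of the 413 replicate 1 members (41.9%, 37.1 to 46.8%) overlapped replicate 2, against 36.2% of all replicate 1 intervals. The other chromosomes ran from 67.8% to 83.0% in the first direction, where III was second, and from 32.4% to 40.2% in the second, where III was highest. Because the replicate 1 list is longer, it had more room to cover replicate 2 than the reverse. By strength group, sharing with replicate 2 was 93.8%, 60.7%, 26.2%, 11.0% and 3.75% of replicate 1 members from group 1 to 5. Sharing with replicate 1 was found for 41 of 41 replicate 2 members in group 1, followed by 94.1%, 87.5%, 73.7% and 48.9%. These shares by strength group were not computed for the other chromosomes, so whether they are particular to III is unknown.

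The strongest regions that 1 replicate had and the other lacked ranked 511 in replicate 1 and 621 in replicate 2. In replicate 1 they lay at 12978596 to 12979106 (value 1.88e-10, rank 511), 7141973 to 7142460 (2.74e-10, rank 524) and 6873235 to 6874089 (3.13e-09, rank 637), and all 3 overlapped a combined interval. The last is a piece of the 3573 bp region described above. In replicate 2 they lay at 793570 to 794217 (8.56e-07, rank 621), 3065752 to 3066262 (1.11e-06, rank 639) and 2870512 to 2871503 (1.81e-06, rank 673). The last of these also overlapped no combined interval.

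Where intervals of both replicates overlapped, their midpoints were mostly close. There were 172 pairs that overlapped one to one and were members in both lists. Choosing pairs by overlap bounds the distance between their midpoints, and intervals placed farther apart count as not shared. The midpoints of a pair were a median of 51.8 bp apart, and 124 pairs (72.1%) were within 100 bp. The largest distance was 668 bp. The overlap covered a median of 99.6% of the shorter interval, so in the median pair nearly all of the shorter interval lay inside the longer one. Replicate 1 had the wider interval in 115 pairs and the smaller value in 134, with a median −log10 value of 8.31 in replicate 1 and 5.75 in replicate 2. Over these 172 pairs the values had a Spearman's rho of 0.673, and their −log10 had a Pearson's r of 0.805. The pairs share the chromosome and the strain and were called in both lists, so both coefficients are descriptions.

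**Figure D3:**
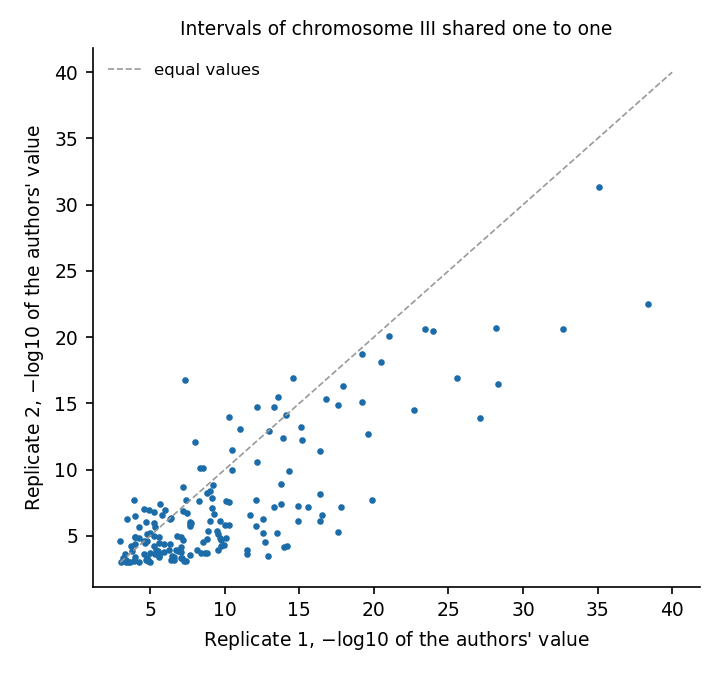
−log10 of the authors' value in replicate 1 (horizontal) and replicate 2 (vertical) for the 172 pairs of intervals shared one to one on chromosome III outside the Hox window. Most points lie below the dashed line of equal values, as replicate 1 had the smaller value in 134 pairs.

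The combined list held nearly all replicate regions of the chromosome. It overlapped 374 of the 413 replicate 1 members (90.6%, 87.3 to 93.2%), against 90.7% of all replicate 1 intervals, and 205 of the 215 replicate 2 members (95.3%, 91.6 to 97.7%), against 95.5% of all replicate 2 intervals. The 39 and 10 that it lacked also overlapped nothing in the other replicate. The strongest of them ranked 1208 in replicate 1, at 11323416 to 11323614, and 673 in replicate 2, at 2870512 to 2871503. The next in replicate 1 lay at 11618118 to 11618194 and 11964228 to 11964369, and in replicate 2 at 11486475 to 11486841 and 11749445 to 11749755. All 4 of these, and the first of replicate 1, lie between 11000001 and 12000000. That stretch held 40 of all 413 replicate 1 members and 15 of all 215 replicate 2 members.

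Members that overlapped neither replicate list were mostly not at the edges of replicate regions. Their median distance to the nearest replicate interval was 8329 bp. Of the 579, 46 (7.94%) were within 1 kb of one and 313 (54.1%) within 10 kb. The farthest was 103153 bp away.

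Along the chromosome, the combined list was densest in the right of 3 segments, where a stretch well before the end held many of the members. The extent was taken as the largest interval end in any list, 13771408, and was split into segments of equal length. The right segment held 399 members (40.6%, 37.5 to 43.8%) on 34.2% of the extent outside the Hox window, or 86.9 per Mb. The middle segment held 275 (28.0%, 25.2 to 30.9%) on 31.6%, or 64.9 per Mb, and the left segment held 308 (31.4%, 28.5 to 34.4%) on 34.2%, or 67.1 per Mb. Replicate 1 gave 36.4, 28.3 and 27.4 per Mb for right, middle and left. Replicate 2 gave 17.0, 17.2 and 13.9 per Mb, so there the right and middle segments were nearly equal.

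Members that overlapped both replicate lists were about equally dense in the middle and right segments. Their density was 14.4 per Mb in the middle (61 members), 13.7 per Mb on the right (63) and 10.5 per Mb on the left (48). As a share of each segment's members, support by both was 22.2% in the middle (17.4 to 27.6%), 15.8% on the right (12.4 to 19.7%) and 15.6% on the left (11.7 to 20.1%), and these intervals overlap. The middle segment also held the widest members, with a median of 396 bp against 285 bp on the right and 318 bp on the left. Strength group 1 made up 26.9% of the middle members, 19.0% of the right and 18.5% of the left. In replicate 1 these shares were 26.7% in the middle, 21.6% on the right and 22.2% on the left. In replicate 2 they were 17.8% in the middle, 15.4% on the right and 25.0% on the left, so there the left segment had the largest share.

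In windows of 500 kb the combined density ran from 44.0 to 126 per Mb, with a median of 68.0 over 27 windows. The 2 densest were neighbours, at 10500001 to 11000000 with 63 members and at 11000001 to 11500000 with 60. The fewest members in a full window, 22, were found in 3 windows, at 500001 to 1000000, 4500001 to 5000000 and 6500001 to 7000000. Replicate 1 was also densest at 10500001 to 11000000, with 29 intervals (58.0 per Mb). Replicate 2 reached its highest count of 13 there, and also at 8500001 to 9000000 and 12500001 to 13000000. Over the 27 windows, Spearman's rho between the replicate densities was 0.538, given as a description of neighbouring windows on 1 chromosome.

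The 3 windows from 10500001 to 12000000 together held 170 members, 17.3% of all on 11.2% of the extent, or 113 per Mb. Of these, 22 (12.9%) overlapped both replicate lists and 111 overlapped neither, so the density of members supported by both was 14.7 per Mb. Nearer the right end, the density was 68.0 per Mb at 12000001 to 12500000 and 100 per Mb at 12500001 to 13000000. It was 68.0 per Mb at 13000001 to 13500000 and 59.0 per Mb in the last, shorter window, so it neither rose nor fell steadily towards the end. The stretch from 10500001 to 12000000 held 13 of the 39 replicate 1 members and 3 of the 10 replicate 2 members that overlapped no combined interval. It held 69 of all 413 replicate 1 members and 28 of all 215 replicate 2 members. The stretch was picked for its density, and these shares were not tested against each other.

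Next to the Hox window, the density stood differently against the window medians in the 3 lists. In the combined list it was below the median of 68.0 per Mb. The window before it, 7000001 to 7500000, held 27 members (54.0 per Mb), of which 8 overlapped both lists and 8 neither. The short piece between the right edge and 8000000 held 10 members (66.7 per Mb), and the window after it held 32 (64.0 per Mb). Replicate 1 had 38.0 per Mb before the Hox window, 33.3 in the short piece and 26.0 in the window after it, with a median of 28.0 over all windows. Replicate 2 had 16.0, 26.7 and 16.0 per Mb at the same places, with a median of 14.0. Members that overlapped both lists had 16.0, 20.0 and 12.0 per Mb, with a median of 12.0. The short piece held 5 intervals of replicate 1, 4 of replicate 2 and 3 members that overlapped both lists, so its densities rest on few intervals. The last member before the left edge was at 7499442 to 7499754, with a combined value of 9.36e-10, and the first interval past the edge was the 28411 bp one at 7521404 to 7549814, with 6.96e-140. On the right, the last interval inside was at 7780506 to 7780694, with 2.01e-05, and the first member outside was at 7854305 to 7855007, with 7.96e-40.

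**Figure D4:**
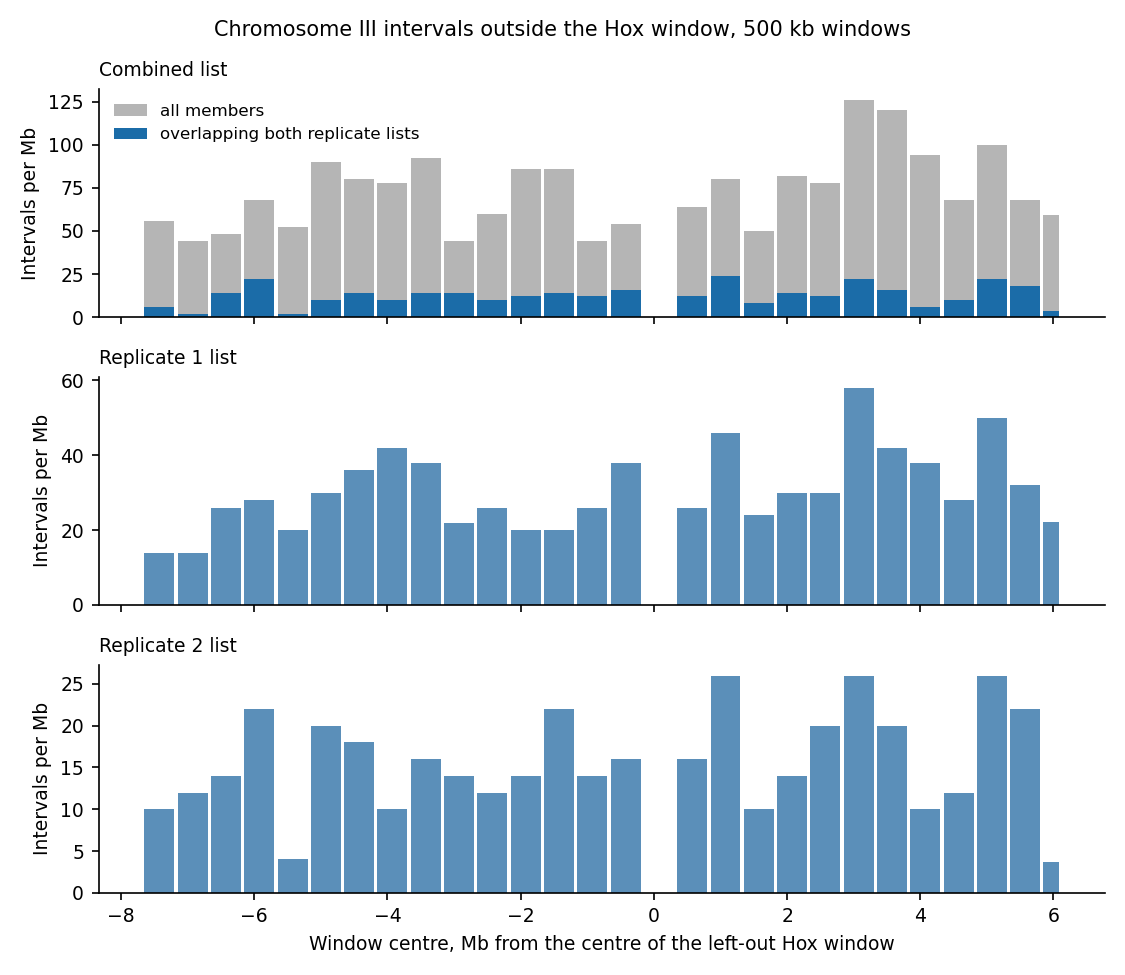
Intervals per Mb (vertical) in 500 kb windows along chromosome III for the combined list and both replicate lists, placed by distance in Mb from the centre of the left-out Hox window (horizontal). Grey bars show all combined members, and the blue bars drawn in front of them those that overlapped both replicate lists. The combined list peaks at 126 per Mb, about 3 Mb to the right of the Hox window.

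Most gaps between members were longer than 1 kb, though 192 members had another member within 1 kb. Gaps were counted from the end of 1 member to the start of the next on the same side of the Hox window. The median of 980 gaps was 7295 bp (quartiles 2375 and 17744 bp), and the shortest was 201 bp. Gaps under 1 kb made up 101 of the 980 (10.3%, 8.47 to 12.4%). This was the lowest share of the 6 chromosomes in the combined list, with the others from 11.6% on X to 18.1% on IV. Chromosome III also had a lower density than every chromosome but X, at 73.2 members per Mb against 65.4 to 102, and the part of density in the share of short gaps was not tested. In replicate 1 the median gap was 19055 bp with 5.60% under 1 kb, again the lowest, against 6.31% on X to 9.04% on V. In replicate 2 the median gap was 42618 bp with 5.63% under 1 kb. The others ran from 4.28% on I to 9.64% on IV, so III was not the lowest there.

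Having a close neighbour went with little difference in support. Members with another member within 1 kb overlapped both lists in 39 of 192 cases (20.3%, 14.9 to 26.7%). Those whose nearest member was 1 kb to 10 kb away did so in 101 of 615 cases (16.4%, 13.6 to 19.6%). With the nearest member 10 kb or more away, it was 32 of 175 (18.3%, 12.9 to 24.8%). These intervals overlap and cover counting error only, and the differences were not tested.

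The tightest runs held 6 members within 10 kb. One lay at 10811336 to 10820120, with 3 intervals of each replicate list, 2 members that overlapped both lists and 3 that overlapped neither, and ranks from 188 to 7506. The other lay at 6401895 to 6410785, with 2 intervals of replicate 1 and 3 of replicate 2, and ranks from 195 to 5858. A run of 5 members followed at 5552298 to 5559438, of which 1 overlapped both lists and 4 neither. Each of these 3 runs thus mixed strong and weak regions. Other runs of 5 members also lay within 10 kb, for example at 4275505 to 4285318, and are not described here.

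The longest gaps were 127051 bp at 4757316 to 4884366, 119750 bp at 640846 to 760595 and 109173 bp at 9987127 to 10096299. The first 2 held no interval in either replicate list, and the third held 1 of replicate 1.

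**Figure D5:**
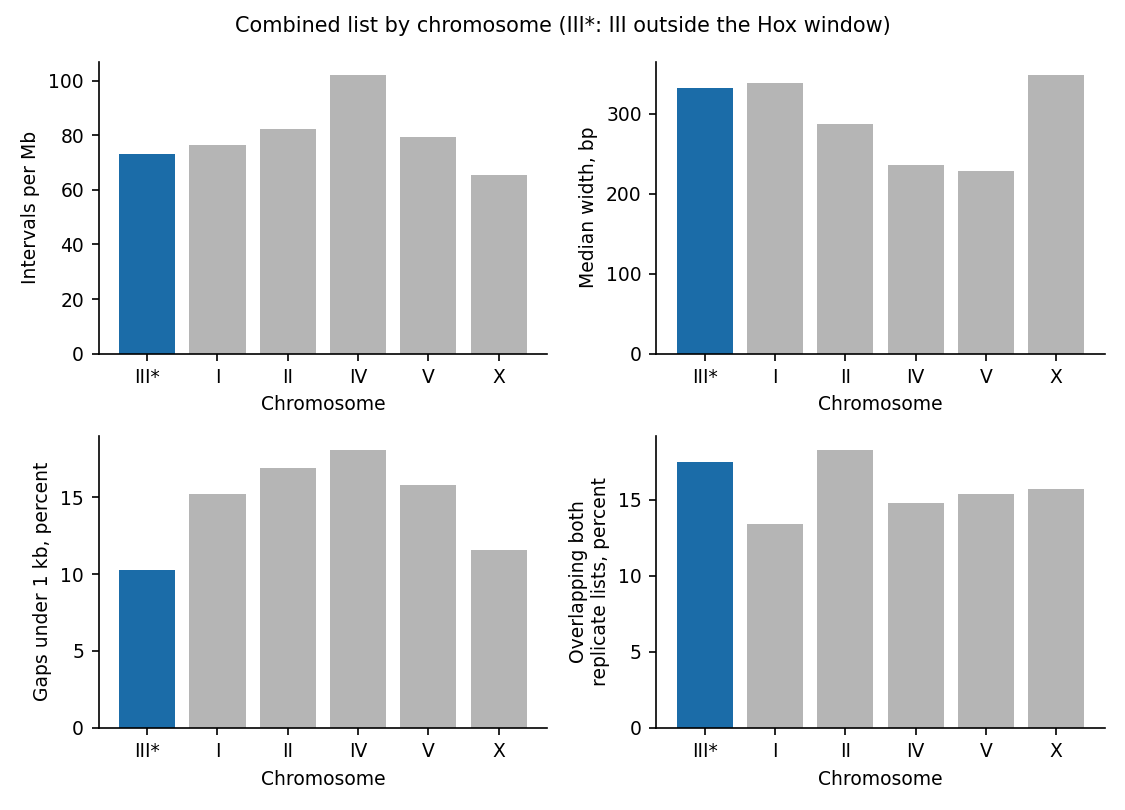
Combined intervals per Mb, median width in bp, percent of gaps under 1 kb and percent of intervals overlapping both replicate lists (vertical axes), for chromosome III outside the Hox window (III*, blue) and the other 5 chromosomes (grey). In the combined list, III has the smallest share of short gaps, 10.3%, and the second highest share overlapping both replicate lists, 17.5%. In replicate 2 it does not have the smallest share of short gaps.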

How the data were processed

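Worms were fixed in formaldehyde at 2%, quenched with Tris at 100 mM and sonicated, per the labels' protocols. Samples were grouped by title. The deposited intervals are PeakSeq calls with WS220 coordinates, per the file headers. The authors gave each a single p-value or q-value (the files do not say which), at most 0.000999 in the combined list. PeakSeq's version and thresholds, its control, the aligner, the read depth and how the combined list was made were not given in the sources used here. Values served for ranks inside 1 list and for pairs of overlapping intervals. No gap between members was under 201 bp, and whether closer regions were merged was not tested.

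Overlap, gaps, widths and densities were computed with Python 3.11.15, numpy 2.4.6, scipy 1.17.1 and matplotlib 3.10.9. The overlap step was tested on shifted copies of replicate 2 intervals, and gaps and the membership rule on made-up positions. Widths and densities had no such test. Shares have exact Clopper-Pearson 95% intervals. The members and lists were chosen with earlier results of these data known. Regions named were the 15 strongest, the 3 widest, the 3 strongest without replicate support, the 3 strongest of each replicate missing from another list, the 3 tightest runs, the 3 longest gaps, the densest and sparsest windows and the neighbours of the Hox window edges. The region in place 80, the stretch from 10500001 to 12000000 and those in the closing section were chosen after their values were seen. Alternatives used other overlap rules, strength and width limits, window edges, window sizes and gap limits.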

Additional observations from a re-analysis of the deposited data

How the results depend on the processing

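Of 64 alternatives, 40 stayed within the main counting error (for the number of members, within 1.5 times). Several of the others differ by construction. Fewer intervals enter where a list is cut or replaced, and another gap or strength limit measures another share. Support from 1 replicate can only raise the share without overlap, and a reciprocal overlap of 50% can only lower sharing. For the remaining alternatives the cause was not tested, and the tally does not measure robustness. The 11 alternatives for the value relation and for window densities under other member rules were chosen after seeing the data. In the stronger 50% of each list there were 517 members, the median width was 442 bp, 5.63% of gaps were under 1 kb and 90.2% of replicate 2 members overlapped replicate 1. Without intervals under 50 bp the median width was 360 bp. With reciprocal overlap of 50%, 63.8% of members overlapped neither list, and 71.2% of replicate 2 and 37.0% of replicate 1 members were shared; with midpoints within 200 bp, 74.4% of replicate 2 members were. With 1 replicate list in place of the combined one, members numbered 215 to 413, the middle segment held 29.1 to 34.0%, the median width was 382 to 441 bp and gaps under 1 kb were 5.60 to 5.63%. Support counted from 1 replicate left 62.1 to 79.3% of members without overlap. Gap limits of 500 bp and 2 kb gave 5.51% and 21.5%, and the strongest 10% and 50% of the list held 11.5% and 52.6% of members. In the stronger 50%, the densest and sparsest windows were at 68.0 and 20.0 per Mb.

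Leaving out intervals that touch the Hox window was planned too, but 0 members touch it, so this setting left nothing out and is not counted. No paired analysis was possible because the input libraries gave no list and no result comes from a test between groups. With depth unknown, a weak interval of 1 list cannot be called absent from another.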

Other observations

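The regions of this section were singled out after their values were seen. Of the 172 members that overlapped both replicate lists, 169 (98.3%) had a smaller value in the combined list than in each replicate list. This share was not computed for the other chromosomes, so whether it is particular to III is unknown. The 3 exceptions were weaker in the combined list than in both replicates. The interval at 931226 to 931775 had a combined value of 1.80e-04 (rank 5262), against 6.49e-08 in replicate 1 (rank 838) and 2.23e-09 in replicate 2 (rank 337). The interval at 1299607 to 1300474 had 1.38e-04 (rank 4911), against 4.92e-07 in replicate 1 (rank 992) and 5.69e-07 in replicate 2 (rank 593). The interval at 10224447 to 10225338 had 1.31e-07 (rank 1824), against 6.16e-13 in replicate 1 (rank 359) and 2.19e-15 in replicate 2 (rank 122).

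These 3 regions also had nearly the same ends in every list. Their replicate intervals started within 5 bp of the combined start, and all but 1 ended within 3 bp of the combined end. The exception was the replicate 2 interval of the first region, which ended 48 bp from it. Over all 172 one-to-one pairs, starts differed by a median of 56.0 bp and ends by 57.5 bp between the replicates, and 5 pairs had both ends within 10 bp, among them the second and the third region. In the whole combined list, 3 intervals in the weaker strength groups 4 and 5 overlapped both replicate lists, and 2 of them were the first and second of these regions. Whether the shared ends and the weaker combined values have a common source was not tested.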
